A study of Mus musculus with 8 samples.

Results

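Contractile, SRF and YAP target genes were followed in induced pluripotent stem cells (iPSCs) with and without the mouse PIWI proteins. The set has 35 genes and was chosen by gene function, with earlier results of these data known. It was read from a count table of 27052 RefSeq records, of which 26317 could be given a symbol. An SRF arm of 25 genes holds the actin isoforms, the actomyosin and thin filament genes, the adhesion and actin crosslinking genes and the SRF regulators. A YAP arm of 10 genes holds YAP targets, Hippo feedback genes and the factors Yap1 and Tead1. For each gene the RefSeq record with the highest mean count was used, and 9 of the 35 genes had more than 1 record. A record was tested where 4 or more of the 8 libraries held 5 or more reads, which left 33 members among 16235 records. Filip1l, with 0 to 3 reads per library, and Myocd, the gene of the smooth muscle SRF cofactor myocardin, with 0 to 1 read, were not tested.

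RNA was sequenced from 8 iPSC clones. The 4 TKO clones carried Miwi-/-, Mili-/- and Miwi2-/- together, and the 4 Ctrl clones came from littermate embryos, triple heterozygous according to the methods of the study and either wild type or heterozygous according to its legends. Both groups shared a mixed C57BL/6-s129 background, an Oct4-GFP reporter, retroviral OCT4, SOX2, KLF4 and c-MYC, and an origin from mouse embryonic fibroblasts (MEFs). Clones had been picked onto mitomycin C-inactivated MEF feeders and were grown in LIF-containing medium to a passage under 10. The labels number the clones, with Ctrl 33 and 34 and TKO 35 and 37 forming a thirties series of 2 clones per genotype and Ctrl 41 and 43 and TKO 47 and 48 a forties series of the same size. The labels say neither what the numbers stand for nor which embryo gave which clone, so p-values measure the spread between these clones, each of which is a single line.

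Total counts were 8983203 and 17216692 in Ctrl 33 and 34, 45005422 and 52457455 in TKO 35 and 37, and between 23992893 and 28830217 in the forties clones, so depth differed with genotype in the thirties series. Piwil1 (Miwi) stood at 8.13 to 28.8 normalized counts in Ctrl and 2.41 to 4.53 in TKO clones, and Piwil2 (Mili) at 758.5 to 1028 in Ctrl and 3845 to 10080 in TKO clones, which were thus higher for this record. Both genes separated the labelled genotypes, and the third gene, Miwi2, was not checked. The study also reported more Mili and Miwi2 transcript in TKO iPSCs, and it describes these transcripts as truncated and without function. Pluripotency genes were counted at high levels in every clone, and Esrrb was at 0 to 3 reads. The 2 clones of a genotype and series differed by more than counting noise, with a mean chi-square per record of 10.1 for TKO 35 and 37 and of 13.7 to 25.8 for the other pairs.

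Serum response factor (SRF) binds CArG boxes in the promoters of actin, actin-binding and focal adhesion genes, and its MRTF cofactors enter the nucleus when RhoA signalling draws actin monomers into filaments. YAP is a coactivator of the TEAD factors and is kept out of the nucleus by the Hippo kinases LATS1 and LATS2. Both pathways respond to cell spreading and tension, are active in cultured fibroblasts and share some targets, such as Ctgf (Ccn2), Cyr61 (Ccn1) and Ankrd1.

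RefSeq gene starts of GRCm38.p6 gave promoter windows for 28 of the 35 members, and Tagln, Actg2, Myocd, Abra, Ctgf, Thbs1 and Tead1 had no entry. The 250 bases before each start were searched on both strands for the CArG box and for the TEAD motif, which reads GGAATG or CATTCC. A CArG box was present in 9 of the 28 members (32.1%) and in 1.62% of all 27025 genes with a window. A TEAD motif was present in 12 of the 28 members (42.9%) and in 14.4% of all genes. Acta1 and Vcl held both, and no CArG box overlapped a TEAD motif. The stretches below belong to the members that passed the genotype test described further on and held a match. Each runs 5′ to 3′ on the strand of the gene, and capitals mark a CArG box where they span the longer run and a TEAD motif where they span the shorter one.
Acta1, chr8:123894794-123894893, minus strand: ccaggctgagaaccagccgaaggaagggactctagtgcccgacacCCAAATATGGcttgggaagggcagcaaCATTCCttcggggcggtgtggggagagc
Cnn2, chr10:79988499-79988598, plus strand: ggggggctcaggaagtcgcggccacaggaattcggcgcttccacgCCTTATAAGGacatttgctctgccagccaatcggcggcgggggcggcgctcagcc
Myl9, chr2:156775258-156775357, plus strand: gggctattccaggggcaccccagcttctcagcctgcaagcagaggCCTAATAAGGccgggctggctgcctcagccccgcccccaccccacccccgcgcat
Vcl, chr14:20929148-20929225, plus strand: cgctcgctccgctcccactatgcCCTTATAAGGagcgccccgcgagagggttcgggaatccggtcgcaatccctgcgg
Vcl, chr14:20929210-20929305, plus strand: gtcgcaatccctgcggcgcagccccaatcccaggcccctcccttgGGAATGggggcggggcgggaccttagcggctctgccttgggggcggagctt
Fhl2, chr1:43163962-43164037, minus strand: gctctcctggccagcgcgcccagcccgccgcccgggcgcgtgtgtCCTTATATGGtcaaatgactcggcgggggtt
Fhl2, chr1:43196803-43196902, minus strand: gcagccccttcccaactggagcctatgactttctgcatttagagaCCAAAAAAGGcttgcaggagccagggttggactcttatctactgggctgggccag
Ankrd1, chr19:36120004-36120094, minus strand: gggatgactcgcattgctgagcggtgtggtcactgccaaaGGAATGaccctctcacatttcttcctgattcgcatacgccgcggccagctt
Ankrd1, chr19:36119917-36120012, minus strand: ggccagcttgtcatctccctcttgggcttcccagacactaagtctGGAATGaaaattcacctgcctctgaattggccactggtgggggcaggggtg
Ajuba, chr14:54577775-54577870, minus strand: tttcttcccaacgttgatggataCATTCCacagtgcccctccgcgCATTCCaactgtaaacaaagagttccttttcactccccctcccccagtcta

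The CArG box began 73 bases before the start of Acta1, 56 before Cnn2, 161 before Myl9, 227 before Vcl, and 31 and 96 before the starts listed for Fhl2. Fhl1, Actc1, Filip1l and Srf also held a CArG box and did not pass the test or were not tested, so the match did not separate the members that were called. A match is a string of letters, and binding was not measured.

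Contractile and YAP target genes were lower in TKO than in Ctrl iPSCs once the clone series was a term of the model. With edgeR's quasi-likelihood test and Benjamini-Hochberg adjustment over all 16235 records, 15 of 33 members fell at an adjusted p under 0.05 and 0 rose, where 3.1% of all records tested were called lower and 2.6% higher. At an unadjusted p under 0.05 the members counted 21 lower and 0 higher, where 2132 of the 16235 records were lower and 2000 higher. DESeq2 called 17 members lower and 0 higher. The share of all records called by DESeq2 is not given here or for the later DESeq2 counts. The median log2 fold change was -0.65 over the 33 members and -0.01 over all records, and 30 of the 33 members were below 0 beside 51% of all records. Without the series in the model 0 members were called in either direction, against a background of 0.154% lower and 0.0862% higher. At an unadjusted p under 0.05, 16 members were then lower and 0 higher, where 1200 of 16235 records were lower and 1205 higher. DESeq2 called 10 members lower and 0 higher without the series. In the model with the series only the call of the vinculin gene Vcl was left without TKO 35 or without TKO 37, and leaving out other clones also moved the count. The share of all records called in these refits is not given.

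The list held 5 genes, Acta1, Cnn1, Myl9, Ankrd1 and Abra, that the study had itself selected on these libraries, so their direction is not independent evidence. The other members were chosen with earlier results of these data known, so their direction is not independent evidence either. Of the other 28 members tested, 10 fell and 0 rose in the model with the series, with a median log2 fold change of -0.47. In the SRF arm 11 of 23 tested members fell (median -0.69) and in the YAP arm 4 of 10 (median -0.36). The 4 TKO clones lay below the 4 Ctrl clones with no overlap for 11 of 33 members, beside 4.23% of all records, and above them for 0 members, beside 4.1%. Within both series separately the TKO clones lay below the Ctrl clones for 17 of 33 members, beside 11.5% of all records.

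**Figure D1:**
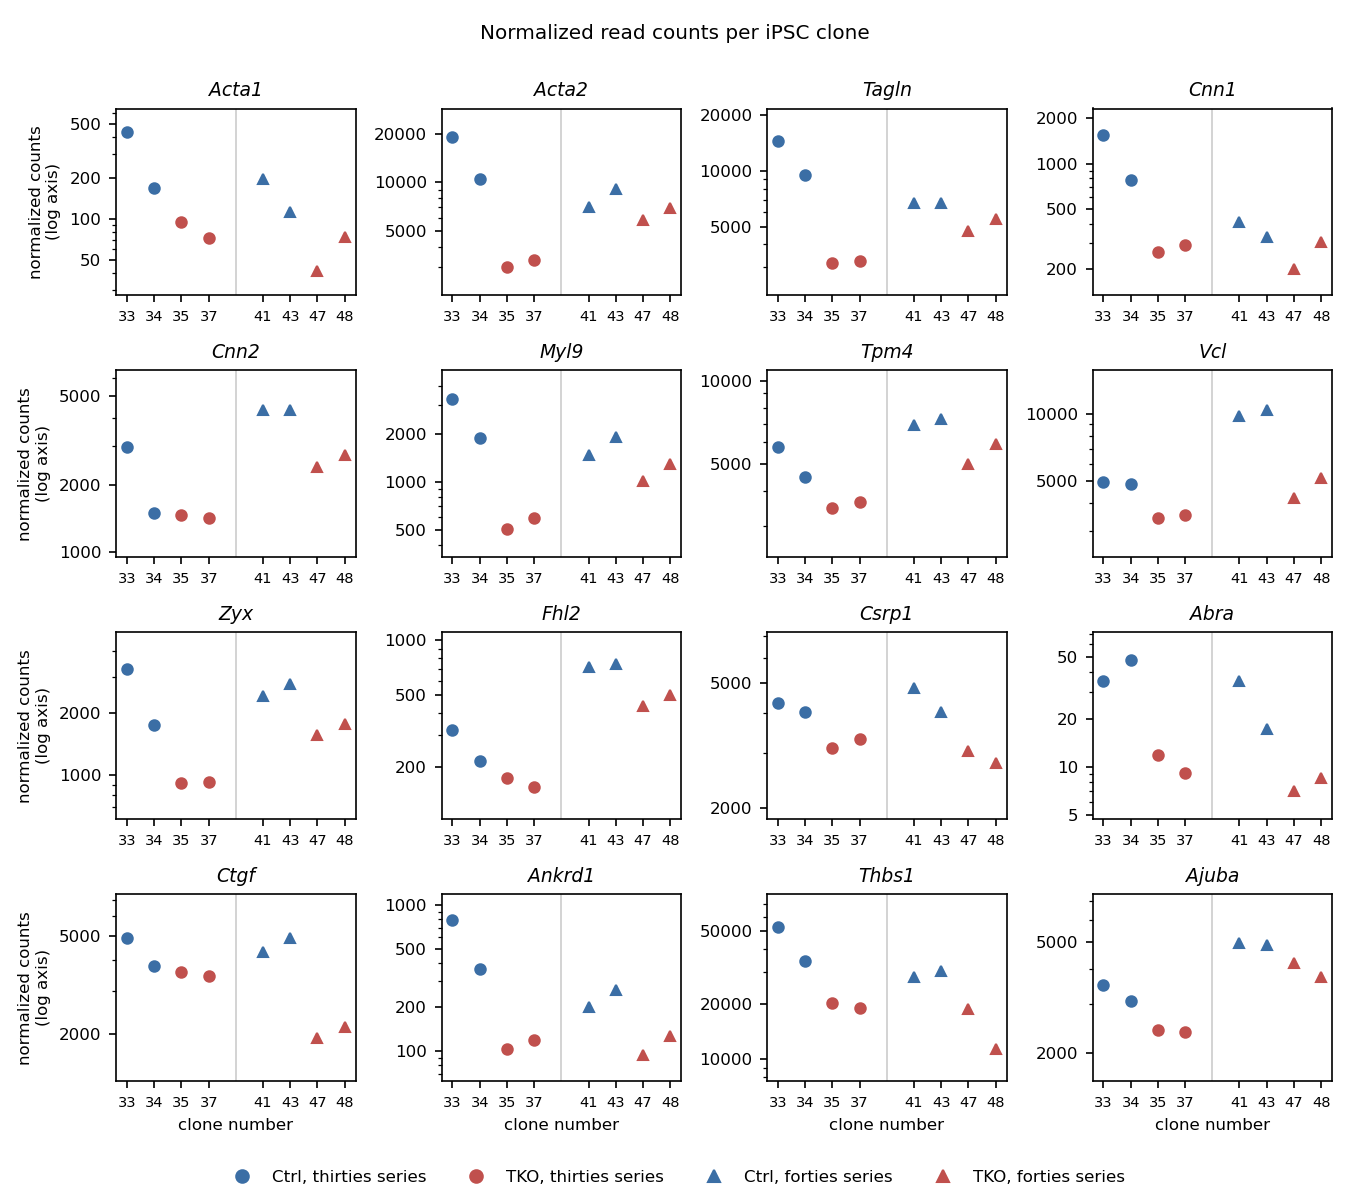
Normalized read counts (log axis) of the 15 members called lower in TKO iPSCs with the clone series in the model, and of Acta2, for each clone by its number. Circles are the thirties series, triangles the forties series, blue is Ctrl and red is TKO, and within each series both TKO clones lie below both Ctrl clones in all 16 panels.

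Among the actin isoforms, Acta1, the skeletal muscle alpha-actin gene (mm9 chr8:126415669-126418651), stood at 430.7, 168, 196 and 112 normalized counts in Ctrl 33, 34, 41 and 43 and at 95.1, 71.9, 41.1 and 73.5 in TKO 35, 37, 47 and 48. The groups did not overlap, and the log2 fold change with the series in the model was -1.63 (standard error 0.33, adjusted p = 0.0280). These values came from 41 to 189 reads per library, and 2.0% of the 50-base windows of the transcript also occur in Actb or Actg1, so part of the reads could be shared with those genes. Acta2, the smooth muscle alpha-actin gene that marks contractile fibroblasts (mm9 chr19:34315580-34329826), was counted far higher, at 19078, 10473, 6994.5 and 9094 in the Ctrl and 3005, 3328, 5857 and 6948.5 in the TKO clones. All TKO clones were below all Ctrl clones, but the gap was wide in the thirties series only, and the joint change of -1.27 did not pass the test (adjusted p = 0.0676). Actg2, the enteric smooth muscle actin gene, had 2427 and 1354 normalized counts in Ctrl 33 and 34 and 158 to 412 in the other 6 clones (log2 fold change -1.24, adjusted p = 0.129). Actc1, the cardiac actin gene, was at 0 to 21 reads per library, with a log2 fold change of -0.93 (adjusted p = 0.291).

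Among the actomyosin and thin filament genes 5 of 8 fell. Tagln, which encodes the actin-binding protein transgelin, stood at 14508, 9479, 6670 and 6709 normalized counts in the Ctrl clones and at 3181, 3240, 4756 and 5468.5 in the TKO clones, in the clone order given above (log2 fold change -1.14, standard error 0.28, adjusted p = 0.0457). Cnn1, the smooth muscle calponin gene, stood at 1549, 783, 415 and 330.1 in Ctrl and 262, 289, 202 and 306 in TKO clones (-1.33, standard error 0.34, adjusted p = 0.0496). Neither gene overlapped between the genotypes, and in both the Ctrl clones of the thirties series were highest. Myl9, a regulatory light chain of smooth muscle and non-muscle myosin, stood at 3316, 1870.5, 1480 and 1895 in Ctrl and 505, 597, 1004 and 1289 in TKO clones (-1.39, standard error 0.33, adjusted p = 0.0428), again with no overlap. Cnn2, the broadly expressed calponin gene, stood at 2969, 1500.4, 4341 and 4324 in Ctrl and 1466, 1423, 2394 and 2733 in TKO clones (-0.69, adjusted p = 0.0478). Tpm4, a non-muscle tropomyosin gene, stood at 5761.5, 4507, 6910.3 and 7258 in Ctrl and 3473, 3647, 5025 and 5935 in TKO clones (-0.45, adjusted p = 0.0333). For Cnn2 and Tpm4 the genotypes overlapped across the series and separated within each, because the forties clones of both genotypes were higher. Tpm1 (-0.99, adjusted p = 0.174), Tpm2 (-0.66, adjusted p = 0.124) and Myh9, the non-muscle myosin heavy chain gene (-0.09, adjusted p = 0.674), did not pass the test.

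Adhesion and crosslinking genes gave 4 falls among 9 tested. Vcl (mm9 chr14:21748655-21852895), which links integrin adhesions to actin, stood at 4973, 4894, 9809 and 10397 normalized counts in Ctrl and 3450, 3532, 4236 and 5194 in TKO clones (log2 fold change -0.80, standard error 0.13, adjusted p = 0.0120). TKO 48 lay above Ctrl 33 and 34, but within each series the genotypes were apart, and Vcl was the single member called in all 13 alternative settings, with adjusted p from 4.14e-06 to 0.0456. Zyx, the gene of the focal adhesion protein zyxin, stood at 3278, 1741, 2421 and 2753 in Ctrl and 917, 924, 1565 and 1777.5 in TKO clones (-1.03, standard error 0.21, adjusted p = 0.0284). Fhl2, a LIM protein gene and known SRF target, stood at 319.6, 217, 710 and 739 in Ctrl and 174, 156, 438 and 503 in TKO clones (-0.65, adjusted p = 0.0328). Csrp1, the gene of an actin-bundling LIM protein, differed little among the Ctrl clones, at 4320.5, 4030.3, 4805 and 4039.8, and was lower in every TKO clone, at 3096, 3319.5, 3030.2 and 2774 (-0.49, standard error 0.09, adjusted p = 0.0202). Actn1 (-0.31, adjusted p = 0.0849), Pdlim7 (-0.36, adjusted p = 0.218), the filamin gene Flna (-0.24, adjusted p = 0.473), Fhl1 (0.27, adjusted p = 0.272) and Actn4 (0.17, adjusted p = 0.410) did not pass the test. Actn4 and Fhl1, together with Amotl2 of the YAP arm, were the 3 members with a change above 0.

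Of the SRF regulators, Abra, whose product binds actin and stimulates SRF activity, stood at 35.2, 47.5, 35.3 and 17.3 normalized counts in Ctrl and 11.9, 9.17, 7.01 and 8.55 in TKO clones (log2 fold change -1.88, standard error 0.30, adjusted p = 0.0131). The groups were apart but rested on 7 to 34 reads per library, and the call was lost with libraries thinned to the smallest total and without TKO 35 or TKO 37 (adjusted p of at most 0.0664), and DESeq2 gave the gene no adjusted p in this model. Srf itself stood at 1598, 1169, 2498 and 2340 in Ctrl and 1462, 1338, 1466 and 1448 in TKO clones, so that the 4 TKO clones were close together, with Ctrl 33, 41 and 43 above them and Ctrl 34 below (-0.36, adjusted p = 0.193).

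Of the 5 YAP targets 3 fell. Ankrd1, a nuclear ankyrin repeat protein gene used as a YAP readout (mm9 chr19:36186455-36194334), stood at 791, 364, 200.4 and 261 normalized counts in Ctrl and 104, 119, 93.2 and 126 in TKO clones (log2 fold change -1.73, standard error 0.32, adjusted p = 0.0222). Thbs1, the gene of the secreted matrix protein thrombospondin 1 (mm9 chr2:117937612-117952869), stood at 52913, 34167, 28224 and 30363 in Ctrl and 20239, 19119, 18893 and 11387 in TKO clones (-1.05, standard error 0.17, adjusted p = 0.0140). Both genes were lower in every TKO clone than in any Ctrl clone, and for Thbs1 the call held except without TKO 35 or TKO 37 (adjusted p of at most 0.0648). Ctgf, a secreted matricellular protein gene and one of the most used YAP targets, stood at 4919, 3777, 4316 and 4896 in Ctrl and 3580, 3449, 1932 and 2137 in TKO clones (-0.74, standard error 0.17, adjusted p = 0.0385). Its genotypes did not overlap, and the TKO clones of the forties series were lowest. Cyr61, the closest relative of Ctgf in the list, did not pass (-0.28, adjusted p = 0.222), nor did the receptor gene Axl, at 2 to 7 reads per library (-0.59, adjusted p = 0.528).

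Of the genes of Hippo feedback, Ajuba, whose LIM protein restrains the LATS kinases, stood at 3492, 3057, 4933 and 4860 normalized counts in Ctrl and 2414.5, 2373, 4180 and 3729.5 in TKO clones (log2 fold change -0.38, standard error 0.08, adjusted p = 0.0311). Lats2, the Hippo kinase gene (-0.29, adjusted p = 0.271), and Amotl2, an angiomotin gene (0.30, adjusted p = 0.276), did not pass. The records used for Yap1 and Tead1, 1 of 2 and 1 of 3, were counted low, at 44.6 to 76.4 and 14.0 to 33.6 normalized counts. Neither passed (-0.17, adjusted p = 0.655, and -0.33, adjusted p = 0.503). The rule for reads that match several records is not given, so these counts need not reflect the level of the whole gene. The records used for Srf, Yap1 and Tead1 were thus not among those called with the series in the model.

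Per kilobase of transcript, the most counted members in Ctrl clones were Acta2 at 6410 ± 2982 normalized counts per kilobase, Thbs1 at 6277 ± 1942, Actn4 at 6036 ± 876 and Tagln at 5890 ± 2325 (SD, n = 4 clones). In TKO clones Acta2 was at 2688 ± 1082, Thbs1 at 3000.5 ± 699, Actn4 at 6782 ± 819 and Tagln at 2624 ± 716. Actn4 was thus level with Acta2, Thbs1 and Tagln in Ctrl clones within their spread, and it was the most counted of the 4 in TKO clones. Abra, at 19.2 ± 7.06 in Ctrl, and Acta1, at 158 ± 97.9, were far below them on the same scale.

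The question whether the change held within each clone series was put to the same data with 4 groups of genotype and series, which share 1 estimate of the spread. In the thirties series 15 of 33 members fell and 0 rose, where 7.05% of all records were called lower and 4.83% higher. At an unadjusted p under 0.05 the members counted 20 lower and 1 higher, where 2658 of 16235 records were lower and 2186 higher. The higher member was Amotl2 (0.56, adjusted p = 0.0897), and DESeq2 called 17 lower and 1 higher. The SRF arm gave 12 of 23 (median log2 fold change -0.62) and the YAP arm 3 of 10 (median -0.31). The largest fall was that of Ankrd1 (log2 fold change -2.36), a ratio of group means of 5.2-fold (adjusted p = 0.00625). Actg2 (-2.29, adjusted p = 0.00828), Myl9 (-2.23, adjusted p = 0.00267), Acta2 (-2.22, standard error 0.25, adjusted p = 0.00258), Cnn1 (-2.07, adjusted p = 0.00711) and Abra (-2.01, adjusted p = 0.0176) came next. Tagln (-1.90, adjusted p = 0.00149), Acta1 (-1.81, adjusted p = 0.0357), Tpm1 (-1.80, adjusted p = 0.0237), Zyx (-1.44, adjusted p = 0.00983), Tpm2 (-1.24, adjusted p = 0.00932) and Thbs1 (-1.15, adjusted p = 0.0200) followed. The value of Tpm1 came from the 1 of its 10 RefSeq records that held reads, at 26 to 63 reads per library, and need not stand for the whole gene. The remaining 3 called members, Tpm4, Vcl and Ajuba, fell by 0.45 to 0.53. Without TKO 35 or without TKO 37 most of the 15 calls were lost, and with all libraries thinned to the smallest total the count became 16. The share of all records called in these refits is not given.

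In the forties series 4 of 33 members fell and 0 rose, where 1.17% of all records were called lower and 0.813% higher. At an unadjusted p under 0.05 the members counted 17 lower and 0 higher, where 1672 of 16235 records were lower and 1543 higher. DESeq2 called 10 members lower and 0 higher. The called members were Ctgf (log2 fold change -1.18, standard error 0.14, adjusted p = 0.00958), Vcl (-1.10, standard error 0.11, adjusted p = 0.00357), Srf (-0.73, adjusted p = 0.0428) and Csrp1 (-0.61, adjusted p = 0.0375). The SRF arm gave 3 of 23 (median -0.39) and the YAP arm 1 of 10 (median -0.49), and the direction was below 0 for 30 of 33 members. Acta1 (-1.42, adjusted p = 0.144), Abra (-1.73, adjusted p = 0.0843), Ankrd1 (-1.07, adjusted p = 0.133) and Thbs1 (-0.95, adjusted p = 0.0806) had changes of a size close to the called ones or larger but did not pass. The count of 4 called members rose without Ctrl 33 or without Ctrl 34, and it fell without any of TKO 35, TKO 37, Ctrl 41 and Ctrl 43. The share of all records called in these refits is not given, so the shifts need not be particular to the members.

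**Figure D2:**
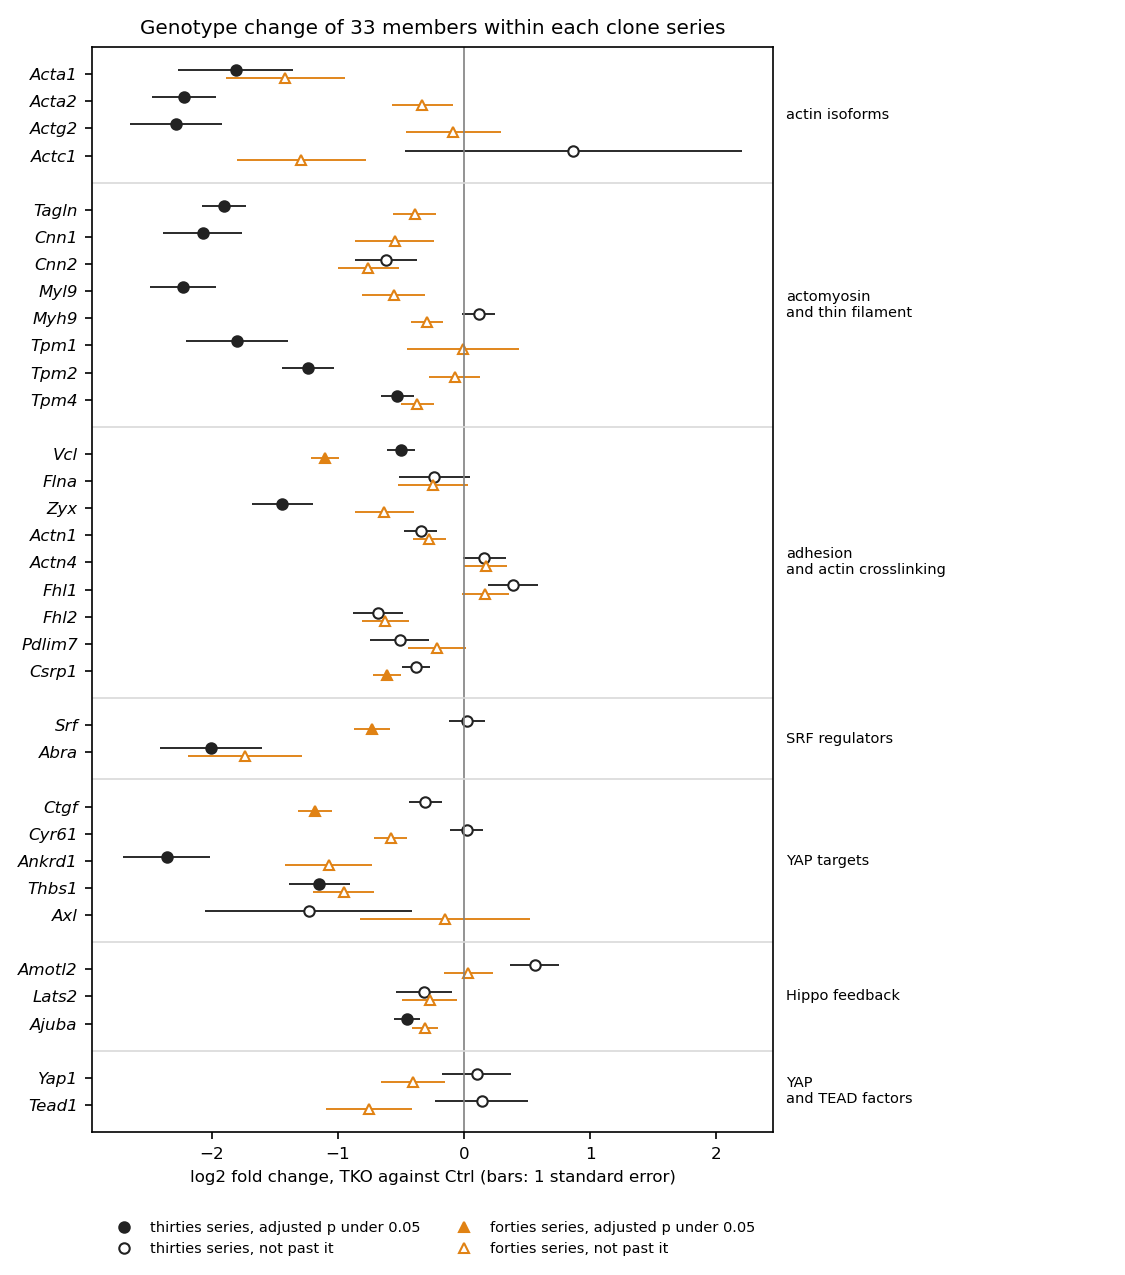
Log2 fold change of TKO against Ctrl for the 33 members tested, by role, in the thirties series (circles) and the forties series (triangles), with bars of 1 standard error. Filled points passed an adjusted p of 0.05, and 24 members lie below 0 in both series.

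Vcl was the single member called in both series. The genotype change itself differed between the series, by edgeR's interaction term, for 2 members, where 1.3% of all records were called, and both had the wider gap in the thirties series. For Acta2 the change in the forties series was 1.89 log2 units above that in the thirties series (standard error 0.35, adjusted p = 0.0432), with Ctrl to TKO ratios of 4.67-fold in the thirties and 1.26-fold in the forties. For Tagln the difference was 1.51 (standard error 0.24, adjusted p = 0.0331), with ratios of 3.74-fold and 1.31-fold. Both calls were lost without any of Ctrl 41, Ctrl 43, TKO 35, TKO 37 and TKO 48. No member was called with the wider gap in the forties series. In that direction 4 members were at an unadjusted p under 0.05, where 1300 of 16235 records were, and DESeq2 called 3. Ctgf (-0.87, adjusted p = 0.0606) and Vcl (-0.60, adjusted p = 0.0881) came closest.

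Markers of fibroblasts, the cells of origin and of the feeder layer, moved with these genes in one series and against them in the other. All 18 fibroblast markers were tested, although the receptor genes Pdgfra and Pdgfrb had only 1 to 15 and 1 to 8 reads per library. Their summed level was 99986 and 68170 normalized counts in Ctrl 33 and 34 against 43319 and 40663 in TKO 35 and 37, and 52838 and 56069 in Ctrl 41 and 43 against 78044 and 71898 in TKO 47 and 48. In the thirties series 11 of 18 fell and 0 rose, with a median log2 fold change of -1.21, where 7.05% of all records were called lower and 4.83% higher. The called ones with the largest changes were the transcription factor genes Twist2 (-2.15, adjusted p = 0.00336) and Prrx1 (-1.83, adjusted p = 0.0131), the microfibril gene Fbn1 (-1.86, adjusted p = 0.00164) and S100a4 (-1.55, adjusted p = 0.00313). In the forties series 0 fell and 0 rose, where 1.17% of all records were called lower and 0.813% higher, and the median was 0.56. At an unadjusted p under 0.05, 0 markers were lower and 9 higher, where 1672 of 16235 records were lower and 1543 higher. The TKO clones of the forties series lay above the Ctrl clones for 12 of the 18 markers and below them for 0, whereas they lay below the Ctrl clones for 24 of 33 members and above them for 1, where 26.6% of all records lay above and 27% below with no overlap. The change differed between the series for 9 of the 18 markers, where 1.3% of all records were called. With the series in the model 0 of 18 passed, where 3.1% of all records were called lower and 2.6% higher. At an unadjusted p under 0.05, 2 markers were then lower and 0 higher, where 2132 of 16235 records were lower and 2000 higher. In bulk RNA, fewer cells of a type and less RNA per cell cannot be told apart, and the part of fibroblast RNA in the fall of the thirties series was not tested.

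**Figure D3:**
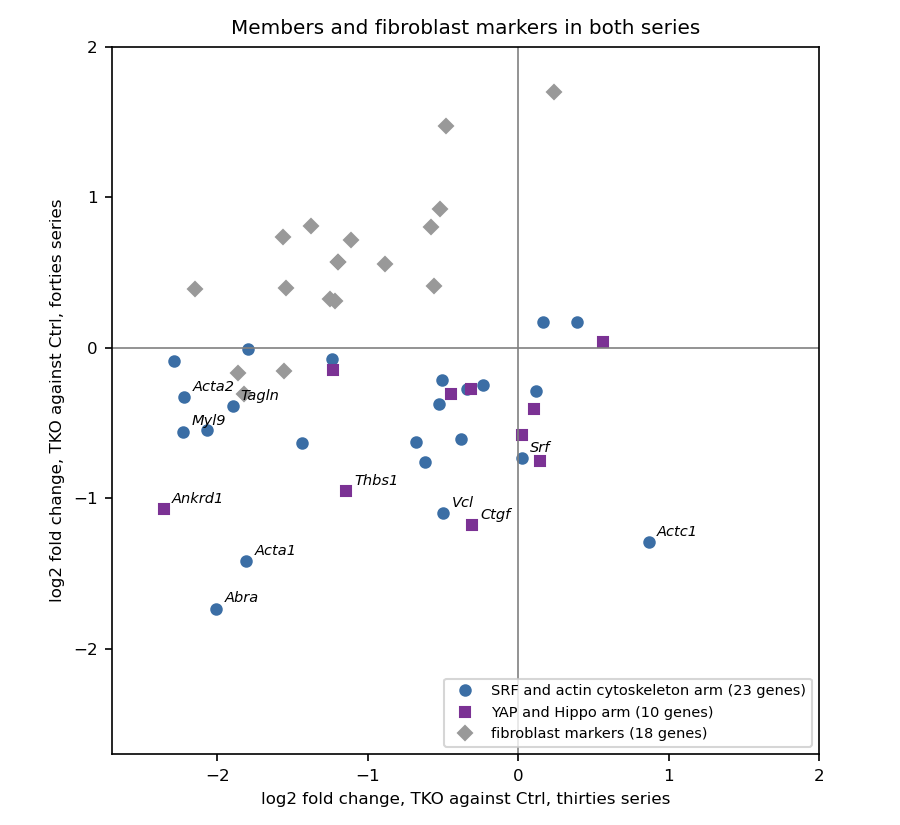
Log2 fold change of TKO against Ctrl in the thirties series (horizontal) and in the forties series (vertical) for 23 members of the SRF arm, 10 members of the YAP arm and 18 fibroblast markers. Most members lie below 0 on both axes, while 15 of the 18 fibroblast markers lie above 0 on the vertical axis and 17 below 0 on the horizontal axis.

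The summed levels, in which a few abundant genes weigh most, differed between the groups of members. The 5 YAP targets together stood at 62835 and 42753 normalized counts in Ctrl 33 and 34, 28335 and 27058 in TKO 35 and 37, 37417 and 40436 in Ctrl 41 and 43, and 23678 and 17301 in TKO 47 and 48. Ctrl exceeded TKO by 1.91-fold in the thirties and by 1.90-fold in the forties series. For the 4 actin isoforms the ratio was 4.66-fold and 1.26-fold, and for the 8 actomyosin and thin filament genes it was 1.34-fold and 1.27-fold. The other groups were closer to 1 in the thirties series, with Ctrl to TKO ratios of 1.12 for the adhesion genes, 1.01 for the SRF regulators, 0.983 for the Hippo feedback genes and 0.950 for Yap1 and Tead1, and of 1.16, 1.67, 1.13 and 1.43 in the forties series. The adhesion genes overlapped in both series, with 53139 in Ctrl 34 below 60457 and 58357 in TKO 35 and 37, and 89397 in Ctrl 41 below 90729 in TKO 48. For the fibroblast markers Ctrl exceeded TKO by 2.00-fold in the thirties while TKO exceeded Ctrl by 1.38-fold in the forties.

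**Figure D4:**
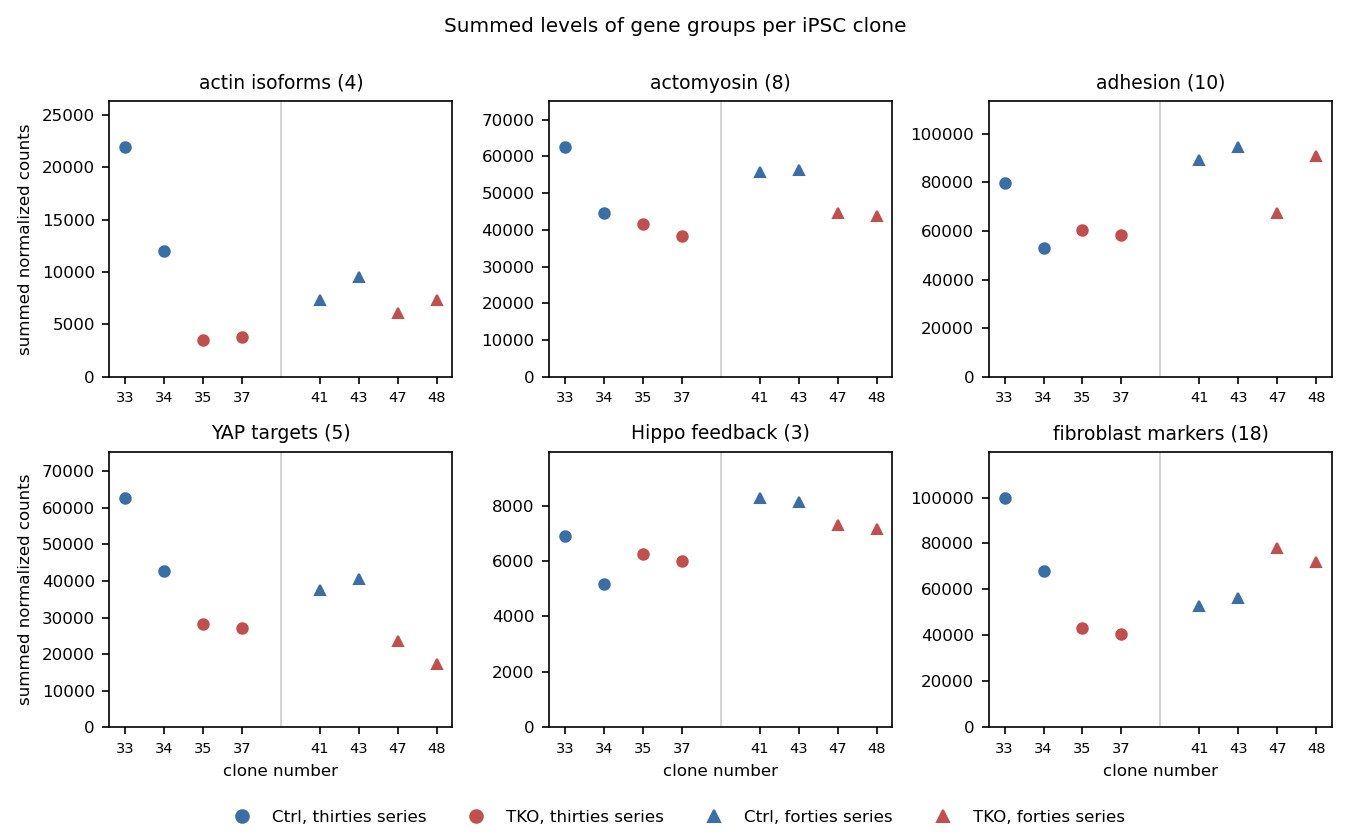
Summed normalized counts (axis from 0) of 5 groups of members and of the 18 fibroblast markers in each clone, with the number of genes in brackets. The summed YAP targets, mostly Thbs1, are lower in both TKO clones of each series. The adhesion genes overlap between the genotypes in both series, and the Hippo feedback genes overlap in the thirties series. The fibroblast markers are lower in TKO in the thirties series and higher in TKO in the forties series.

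Markers of muscle cells were listed as well, and the part of muscle cells in these transcripts was not tested. Of 6 smooth muscle markers Myh11, the defining myosin gene, was at 0 to 9 reads and not tested. It stood at 10.8 and 13.0 normalized counts in Ctrl 33 and 34, at 2.26 and 1.93 in TKO 35 and 37, and was at 0 to 1 read in the forties clones, so that the thirties Ctrl clones were highest, as they were for Actg2. Of the 5 smooth muscle markers tested, 0 were called with the series in the model and 0 in the thirties series (1 lower and 0 higher at an unadjusted p under 0.05 in each). The most counted were Des, the intermediate filament gene desmin (-0.18, adjusted p = 0.671), and the leiomodin gene Lmod1 (-0.60, adjusted p = 0.110). Of 12 striated muscle markers, the cardiac genes Myh6 and Tnnt2 and the troponin gene Tnni1 were at 0 in every library. Of the 12, 6 were tested and 0 were called (0 in either direction at an unadjusted p under 0.05). Most counted were the actinin gene Actn2 (-0.47, adjusted p = 0.240) and the embryonic myosin gene Myh3 (-0.12, adjusted p = 0.881). Myh6, Tnnt2, Tnni1 and Myh11 have 2, 9, 2 and 2 RefSeq records, and the rule for reads that match several records is not given. Their counts near 0 thus need not reflect the level of the whole gene, and absence of muscle cells cannot be read from them. Of 9 pluripotency markers tested, Pou5f1 (Oct4) fell (-0.61, adjusted p = 0.0101) and 0 rose (2 lower and 1 higher at an unadjusted p under 0.05). Beside these marker lists, 3.1% of all records were called lower and 2.6% higher with the series in the model. In the thirties series these shares were 7.05% and 4.83%.

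The members' levels also differed between the series. In the same model 7 of 33 members rose and 1 fell in the forties against the thirties series, where 9.84% of all records were called higher and 9.56% lower. Fhl2 (log2 fold change 1.48, adjusted p = 0.000660), Flna (0.92, adjusted p = 0.0122), Cnn2 (0.89, adjusted p = 0.00841), Vcl (0.73, adjusted p = 0.00524), Ajuba (0.65, adjusted p = 0.00139) and Tpm4 (0.54, adjusted p = 0.00629) were higher in the forties clones, as was Actc1 from 0 to 21 reads per library (adjusted p = 0.0151). Actg2 was lower (-1.91, adjusted p = 0.0197).

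The upstream pathways were described by lists of their parts. Of 20 genes of the RhoA and MRTF pathway 3 fell and 0 rose with the series in the model, where 3.1% of all records fell and 2.6% rose. Their median log2 fold change was -0.17. At an unadjusted p under 0.05, 6 were lower and 1 higher, where 2132 of 16235 records were lower and 2000 higher. The 3 that fell were Actg1, the cytoplasmic gamma-actin gene (-0.60, adjusted p = 0.0157), the kinase gene Rock2 (-0.36, adjusted p = 0.0402) and the SRF partner gene Elk4 (-0.72, adjusted p = 0.0495). The myosin light chain kinase gene Mylk, which acts on the product of Myl9, fell in the thirties series (-2.16, adjusted p = 0.00458) and not in the forties (0.32, adjusted p = 0.619), and this difference was called (2.48, adjusted p = 0.0381).

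Of 16 Hippo pathway and TEAD genes tested, 4 fell and 1 rose, where 3.1% of all records fell and 2.6% rose. Tead3, at 0 to 5 reads, was left out. The angiomotin gene Amot (-1.49, adjusted p = 0.0371), the kinase adaptor gene Mob1b (-0.70, adjusted p = 0.0280) and the kinase genes Taok1 (-0.57, adjusted p = 0.0345) and Stk4 (-0.34, adjusted p = 0.0333) fell, and Stk3, which encodes the kinase MST2, rose (0.75, adjusted p = 0.00733). Stk3 was called higher in both series (0.78, adjusted p = 0.0115, and 0.72, adjusted p = 0.0410). Amot stood at 477, 384, 6206 and 2045 normalized counts in Ctrl 33, 34, 41 and 43. In TKO 35, 37, 47 and 48 it stood at 217, 228, 856 and 1247. The genotypes of Amot overlapped across the series and were apart within each, and Ctrl 41 was far above every other clone. Of 14 integrin and focal adhesion genes the fibronectin receptor subunit gene Itga5 fell (-0.58, adjusted p = 0.0341) and 0 rose, beside the same shares of all records. The medians of these lists, -0.11 and -0.10, were closer to that of all records than those of the members.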

How the data were processed

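RNA-seq read counts of 8 iPSC clones were analysed. Per the methods of the study, the authors read TruSeq libraries single-end and mapped them with BWA (0.7.5a in the submitters' processing notes) to mm9 GenBank transcripts. The deposited table holds whole-number counts per RefSeq record, neither scaled nor filtered; the rule for reads matching several records and strand are not given in the sources used here. Symbols came from a RefSeq table of GRCm38.p6 and gene coordinates from GENCODE on mm9. Records holding 5 or more reads in 4 or more libraries were tested with edgeR 4.0.16 (glmQLFit and glmQLFTest, R 4.3.3) with median-ratio size factors (0.369 to 2.07), which also scale the normalized counts. Genotype was fitted alone, with the clone series, and as 4 groups of genotype and series. Adjusted p-values are Benjamini-Hochberg over 16235 records, and 0.05 was the threshold. The methods were tested on simulated counts.

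Named were all 35 members, with per-clone values for those called with or without the series, and of each other list up to 4 called genes with the largest change or else the 2 most counted. Acta2, Actg2, Srf, Myh11 and Amot were given per clone, and Stk4 and Mylk were named outside this rule, after their values were seen. The members and lists were chosen with earlier results of these data known. Alternatives were TMM scaling, no filter, DESeq2 1.42.0, counts summed per symbol, thinned libraries, a 2.5-fold threshold added without the series and leaving out each clone. The fits of a series alone and the count without the members the study selected were added after seeing the data.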

Additional observations from a re-analysis of the deposited data

Results flagged for a closer look

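In the 66 groups of 4 clones checked, 1 clone stood apart from the other 3 by Dixon's criterion in 4, where chance gives about 1 group in 20. Srf was lowest in TKO 37, at 1338.3 normalized counts beside 1448 to 1466.5 in the other TKO clones. Thbs1 was lowest in TKO 48, at 11387 beside 18893 to 20239. Lats2 was highest in TKO 48, at 577.12 beside 362 to 365, and Yap1 was highest in TKO 35, at 58.284 beside 51.1 to 51.3.

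The genotype change differed between the clone series for Acta2, by 1.8913 log2 units (adjusted p = 0.0432 from edgeR's interaction term), and for Tagln, by 1.5120 (adjusted p = 0.0331), with the wider gap in the thirties series for both. The part of fibroblast RNA in this difference was not tested. In the same interaction test 9 of 18 fibroblast markers were called, where 1.3% of all records were, and all 18 had the same sign.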

How the results depend on the processing

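Under TMM scaling, counts summed per symbol and thinned libraries the counts of called members stayed within 1.5 times of those reported, as they did for each series fitted alone (11 in the thirties and 4 in the forties) and for the 2.5-fold threshold without the series in the model (0). Under DESeq2 the fall without the series in the model counted 10 members in place of 0. In the forties series 4 falls became 8 without a filter and 10 under DESeq2, and in the thirties series 0 rises became 1 under both. Under both, the difference between the series was called for 6 members with the wider fall in the thirties in place of 2 and for 3 with the wider fall in the forties in place of 0, and 3 members in place of 1 were lower in the forties than in the thirties clones.

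Leaving out 1 clone moved the 15 falls with the series in the model to between 1 and 16, the 15 falls of the thirties series to between 1 and 19, its 0 rises to between 0 and 1 and the 4 falls of the forties series to between 0 and 15. The difference between the series then counted 0 to 9 members with the wider fall in the thirties and 0 to 5 with the wider fall in the forties, and 0 to 3 members were lower in the forties clones. A genotype left with 1 clone in a series is assumed to vary like the other groups. The share of all records called in these refits is not given, so the shifts need not be particular to the members. No member changed the sign of its log2 fold change with or without the series under any of these settings. No paired analysis was possible because Ctrl and TKO clones share no number. Filip1l, Myocd, Actc1, Axl and Abra were too thinly counted for a firm value, with at most 34 reads in any library, the deepest included. Filip1l, Myocd and Axl have 2, 2 and 3 RefSeq records. Tpm1, Yap1 and Tead1, with 10, 2 and 3 records, were also read from 1 record each.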
